A study of Mus musculus with 8 samples.

Results

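The endoplasmic reticulum (ER) chaperone and unfolded protein response genes are 34 named genes that fold, modify, translocate and degrade secretory proteins or sense their misfolding. They were chosen by gene symbol, with no measured value in the rule, and all 34 were found among the 17518 genes listed and among the 11911 genes tested. Their levels were measured by sequencing polyadenylated RNA of MH-S cells, an established mouse alveolar macrophage line, in 8 libraries. The series concerns RCMNs, nanoparticles that react to oxygen radicals, in the setting of acute lung injury. Cells of the first group (LPS+RCMNs, n = 3) received lipopolysaccharide (LPS), which comes from the outer membrane of Gram-negative bacteria and stimulates macrophages, at 100 ng/mL together with RCMNs at 1 µg/mL. Cells of the second group (LPS, n = 2) received LPS, for which no separate dose was stated, and control cells (n = 3) received phosphate-buffered saline. No library of RCMNs without LPS was analysed here. All groups were the same cell line and no exposure time was given. Whether the replicates came from different cultures is not stated, so each p-value reflects the spread among these libraries alone, and that spread may be technical.

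Proteins that enter the ER through the Sec61 channel are folded there by chaperones of the HSP70 and HSP90 families, by protein disulfide isomerases and by lectins that bind their sugar chains. When unfolded proteins build up, the membrane sensors IRE1 (gene Ern1), ATF6 and PERK become active. IRE1 splices Xbp1 messenger RNA, ATF6 is cut in the Golgi by the proteases of Mbtps1 and Mbtps2, and the resulting factors raise chaperones and the machinery of ER-associated degradation (ERAD), which passes misfolded proteins back to the cytosol. In macrophages, LPS signalling through Toll-like receptors is known to engage IRE1 and XBP1, and the receptors themselves need the ER chaperone of Hsp90b1 to fold. Counts per gene do not tell spliced from unspliced Xbp1 messenger RNA.

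The ER stress element, the promoter motif through which ATF6 acts together with the CCAAT-binding factor NF-Y, is shown here because it ties the chaperone genes to the response. The 250 bases before the annotated start were searched on both strands for exact matches to the ER stress element (ERSE: CCAAT, 9 free bases, CCACG), to ERSE-II (ATTGG, 1 free base, CCACG) and to the core of the unfolded protein response element (TGACGTGG). Of the members, 28 had a promoter in the RefSeq table (build GRCm38.p6). The ERSE was found in 9 of these 28 (32.1%), against 35 of 27025 genes (0.130%) in the whole table. ERSE-II was found in 1 of 28 members, against 10 of the 27025 genes (0.0370%), and the core element in 0 of 28 members, against 163 genes (0.603%). Each window below is printed 5′ to 3′ on the gene's strand with 6 bases on either side, and capitals mark the CCAAT and CCACG ends of the element, ATTGG and CGTGG where it lies on the other strand, or ATTGG and CCACG in the ERSE-II of Herpud1.
Hspa5 (chr2:34772019-34772049, plus strand): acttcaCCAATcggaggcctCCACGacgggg
Hsp90b1 (chr10:86705527-86705662, minus strand): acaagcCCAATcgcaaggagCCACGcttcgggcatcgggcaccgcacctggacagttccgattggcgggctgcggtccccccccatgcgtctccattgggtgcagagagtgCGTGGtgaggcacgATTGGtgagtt
Dnajc3 (chr14:118937821-118937851, plus strand): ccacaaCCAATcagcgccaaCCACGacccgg
Pdia6 (chr12:17266485-17266515, plus strand): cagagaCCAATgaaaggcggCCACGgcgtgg
Calr (chr8:84847069-84847099, minus strand): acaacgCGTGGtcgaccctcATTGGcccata
Canx (chr11:50325794-50325824, minus strand): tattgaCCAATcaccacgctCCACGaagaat
Creld2 (chr15:88819514-88819544, plus strand): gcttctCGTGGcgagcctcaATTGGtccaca
Syvn1 (chr19:6046526-6046556, plus strand): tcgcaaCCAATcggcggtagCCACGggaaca
Derl3 (chr10:75893236-75893266, plus strand): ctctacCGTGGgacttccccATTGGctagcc
Herpud1 (chr8:94386371-94386393, plus strand; ERSE-II): gcgctgATTGGgCCACGttggac

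Hsp90b1 held 2 matches, and no match overlapped another. A match is a description of the sequence and not evidence of binding in these cells.

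**Figure D1:**
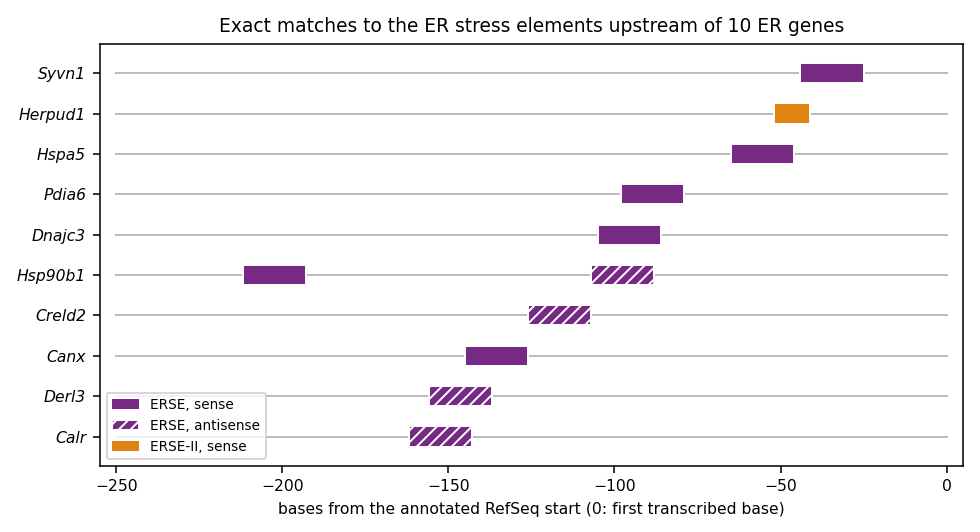
Position of each exact match in the 250 bases before the annotated start of 10 genes; the horizontal axis gives bases from the start, purple bars are ERSE matches (hatched on the other strand) and the orange bar is the ERSE-II match. The matches end at positions from -144 (Calr) to -26 (Syvn1) in genes with 1 ERSE match, and Hsp90b1 has 2.

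Each library held 18.6 to 21.2 M (mega) counts, and levels are given as CPM, counts per M of TMM-scaled library size. The limit that a count of 0 allows was 0.130 to 0.182 CPM, covering counting error only. Macrophage markers (10 of 10 in the table) summed to 6371 to 7946 CPM in LPS+RCMNs, 5547 to 6797 CPM in LPS and 4717 to 5670 CPM in control libraries. The sum hides markers that moved apart, and Lyz2 had the highest FPKM of them. In LPS libraries Ptprc had 40.3 and 42.0 FPKM, against 105 to 115 FPKM in control. Csf1r (125 and 102, against 210 to 296 FPKM) and Itgam (71.5 and 63.0, against 174 to 194 FPKM) were lower too. Spi1 was higher (270 and 229, against 124 to 158 FPKM). Siglecf and Marco, which mark alveolar macrophages in the lung, were at most 0.09 and 0.74 FPKM. Red blood cell markers (6 of 6) summed to 0.658 to 34.1 CPM in LPS+RCMNs, 4359 to 5623 CPM in LPS and 0.824 to 20.7 CPM in control libraries. Neutrophil markers (5 of 5) summed to 0.147 to 0.608 CPM in LPS+RCMNs, 4.54 to 4.97 CPM in LPS and 0.0433 to 0.0466 CPM in control libraries, with Ly6g, Mpo and Elane at most 0.11 FPKM. These transcripts moved with the LPS group, and their part in the differences below was not tested. Markers of plasma cells, which are rich in ER chaperones, summed (4 of 6) to 119 to 142 CPM in LPS+RCMNs, 77.3 to 87.3 CPM in LPS and 87.8 to 113 CPM in control libraries, nearly all from Sdc1, with Jchain and Mzb1 at most 0.05 and 0.54 FPKM. Fibroblast, epithelial and T cell markers summed to at most 0.424, 0.363 and 0.929 CPM in any library. Fewer cells of a type and less RNA per cell cannot be told apart in such data. Control 1 and LPS+RCMNs 2 were unlike their group mates: a chi-square of the counts, divided by its degrees of freedom, gave 44.5 and 47.4 for control 1 and 35.5 and 42.7 for LPS+RCMNs 2, against 1.93 and 2.82 for the remaining pairs of those groups. Each comparison below names the members whose call changed without these 2 libraries. They were picked because their counts deviated, so leaving out either or both narrows the spread within their groups. Adjusted p-values of such fits may therefore be too small, and calls gained there are given as a description.

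The members differed widely in level. Per length, Hspa5, which encodes the HSP70 chaperone BiP, stood highest in LPS+RCMNs and control libraries and level with Calr in LPS libraries, with 959 ± 228 FPKM (SD, n = 3) in LPS+RCMNs, 642 ± 31.5 FPKM (SD, n = 2) in LPS and 610 ± 289 FPKM (SD, n = 3) in control libraries. Calr (calreticulin) and Hsp90b1 came next, with 664 and 646 FPKM in LPS+RCMNs, 642 and 461 FPKM in LPS, and 467 and 493 FPKM in control. The SD of Hspa5 in control libraries was wider than its distance to either of the other means, so the order there is not resolved. The sensor Ern1 was near the low end with 6.12 ± 0.746 FPKM, 1.82 ± 0.0990 FPKM and 7.68 ± 1.76 FPKM in LPS+RCMNs, LPS and control. Derl3 was lowest, at 0.203 to 0.932 CPM in LPS+RCMNs, 0.182 and 0.303 CPM in LPS and 0.173 to 1.02 CPM in control, close to the counting floor, and no fold is read from it.

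**Figure D2:**
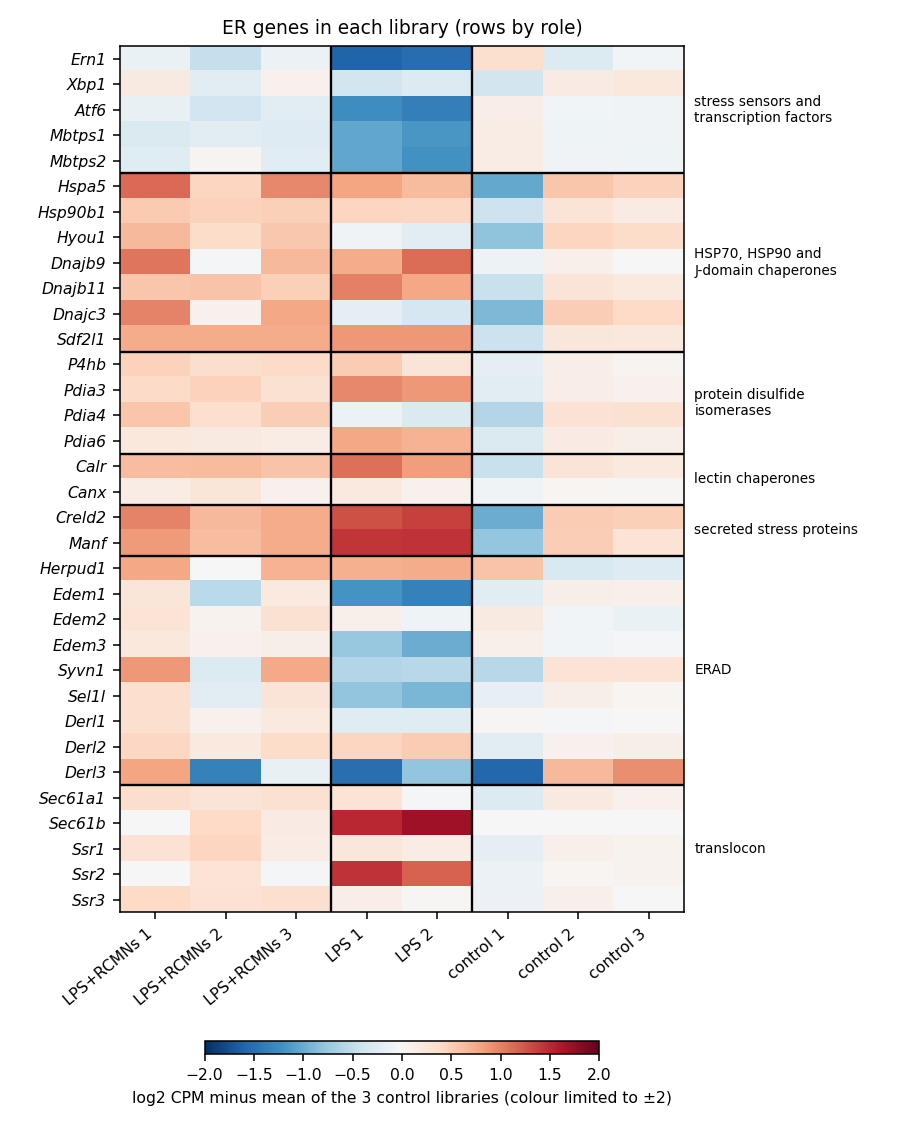
Log2 CPM of each of the 34 genes (rows, grouped by role) in each of the 8 libraries (columns), minus the mean of the 3 control libraries; red is higher and blue lower. The rows of Ern1, Atf6, Edem1, Edem3 and Sel1l are blue in both LPS libraries while Sec61b, Ssr2 and Manf are red there, and control 1 is blue for most chaperones.

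The first comparison asks what the nanoparticles changed in cells given LPS. In LPS+RCMNs cells, relative to LPS cells, the sensors Ern1 and Atf6, the proteases Mbtps1 and Mbtps2 and 5 of 9 degradation genes were higher, while the translocation subunits Sec61b and Ssr2 and the disulfide isomerases Pdia3 and Pdia6 were lower. Ern1 (log2 fold change 1.33), Edem1 (1.28) and Syvn1 (1.11) rose furthest, and Sec61b (-1.41) and Ssr2 (-1.24) fell furthest. With edgeR's quasi-likelihood test and a Benjamini-Hochberg adjusted p below 0.05, 10 members were higher and 4 lower, 14 of 34 in all, against 59.3% of all genes tested (29.8% higher and 29.5% lower). The share of members called was 41.2%, below that of all genes, but without the 2 libraries that stood apart it was 76.5%, where 73.8% of all genes were called (36.7% higher and 37.1% lower). It was 64.7% against 64.7% without control replicate 1, 61.8% against 60.9% in a fit of only the 2 groups and 64.7% against 63.5% by limma on FPKM. It stayed lower with the replicate block (35.3% against 51.9%), by DESeq2 (47.1% against 59.4%) and with median-ratio scaling (44.1% against 59.2%). The same held for genes with FPKM of at least 5 in 2 libraries (45.5% against 68.6%). Leaving out LPS+RCMNs replicate 1, 2 or 3 gave 35.3% against 52.7%, 44.1% against 62.1% and 35.3% against 51.4%. In the fit of all libraries the members' median log2 fold change was 0.17, against 0.03 for all genes. The libraries of the 2 groups did not overlap for 25 of 34 members, against 74.9% of all genes. The BiP gene Hspa5 was not called, with a log2 fold change of 0.16 ± 0.39 (SE; adjusted p = 0.744), but without control replicate 1 and LPS+RCMNs replicate 2 it was called, at 0.31 ± 0.08 (0.00376). Without the libraries that stood apart, 17 members were higher and 9 lower. The 12 members that gained a call were Dnajc3 (1.12), Hyou1 (0.70), Xbp1 (0.42), Hspa5 (0.31), Edem2 (0.26) and Ssr3 (0.24), higher, Derl3, higher but near the floor, and Manf (-0.67), Creld2 (-0.47), Calr (-0.41), Dnajb11 (-0.40) and Sdf2l1 (-0.15), lower. Of the 14 calls in the fit of all libraries, those of Derl1, Edem1, Ern1, Mbtps1 and Mbtps2, all higher, held under all 19 alternatives tried. None of the 4 lower calls did. With a smooth dependence on length and level removed, 0 members were lower, against 19.3% of all genes.

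The second comparison asks what LPS changed relative to saline. In LPS cells, 3 of 7 HSP70, HSP90 and J-domain chaperones, 3 of 4 disulfide isomerases, both secreted stress proteins and the translocation subunits Sec61b and Ssr2 were higher. The sensors Ern1 and Atf6, the proteases Mbtps1 and Mbtps2 and 4 of 9 degradation genes, among them Edem1 and Edem3, were lower. Sec61b (1.61), Manf (1.35), Ssr2 (1.32) and Creld2 (1.17) rose furthest, and Ern1 (-1.58), Atf6 (-1.30), Edem1 (-1.28), Mbtps2 (-1.13) and Mbtps1 (-1.10) fell furthest. In all 12 members were higher and 8 lower, 20 of 34, against 63.4% of all genes (31.4% higher and 32.1% lower). The median of the members was 0.13, against -0.04 for all genes, and the groups did not overlap for 25 of 34 members, against 76.1% of all genes. Without the libraries that stood apart, 16 members were higher and 14 lower, where 74.9% of all genes were called (38.6% higher and 36.3% lower). The 10 members that gained a call were Herpud1 (1.06), Hsp90b1 (0.26), Hspa5 (0.25) and Canx (0.16), higher, and Syvn1 (-0.79), Dnajc3 (-0.65), Hyou1 (-0.49), Pdia4 (-0.45), Xbp1 (-0.45) and, near the floor, Derl3, lower. Both comparisons share the LPS libraries, so their values are set side by side here and not as separate support.

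The third comparison places cells given both agents against cells given saline. A single member passed the test: Sdf2l1, a partner of the J-domain chaperone of Dnajb11, was higher in LPS+RCMNs cells by 0.71 ± 0.15 on the log2 scale (adjusted p = 0.0276), against 7.56% of all genes called (4.33% higher and 3.23% lower). Of all members, Sdf2l1 included, 29 of 34 had a log2 fold change above 0, with a median of 0.31 against -0.02 for all genes, and 17 of 34 did not overlap between the groups, against 29.8% of all genes. Without control replicate 1 and LPS+RCMNs replicate 2, 19 members were higher and 0 lower, where 25.5% of all genes were called (14.8% higher and 10.6% lower). Among those 19 were Herpud1 (1.05), Dnajb9 (0.86), Hspa5 (0.57), Syvn1 (0.57), Sdf2l1 (0.55), Dnajc3 (0.46) and Manf (0.44). The other 12 lay between 0.24 and 0.41. They were Edem2, Creld2, Calr, P4hb, Ssr3, Dnajb11, Hsp90b1, Derl2, Derl1, Pdia3, Pdia4 and Sel1l. The count of called members thus turned on which libraries were included. Without control replicate 1 alone the count was 4, where 8.26% of all genes were called, and without LPS+RCMNs replicate 2 alone it was 6, where 11.5% were. The Sdf2l1 call was lost without LPS+RCMNs replicate 1 (adjusted p = 0.0888), without LPS+RCMNs replicate 3 (0.0813) and in a fit of only these 2 groups (0.0560).

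**Figure D3:**
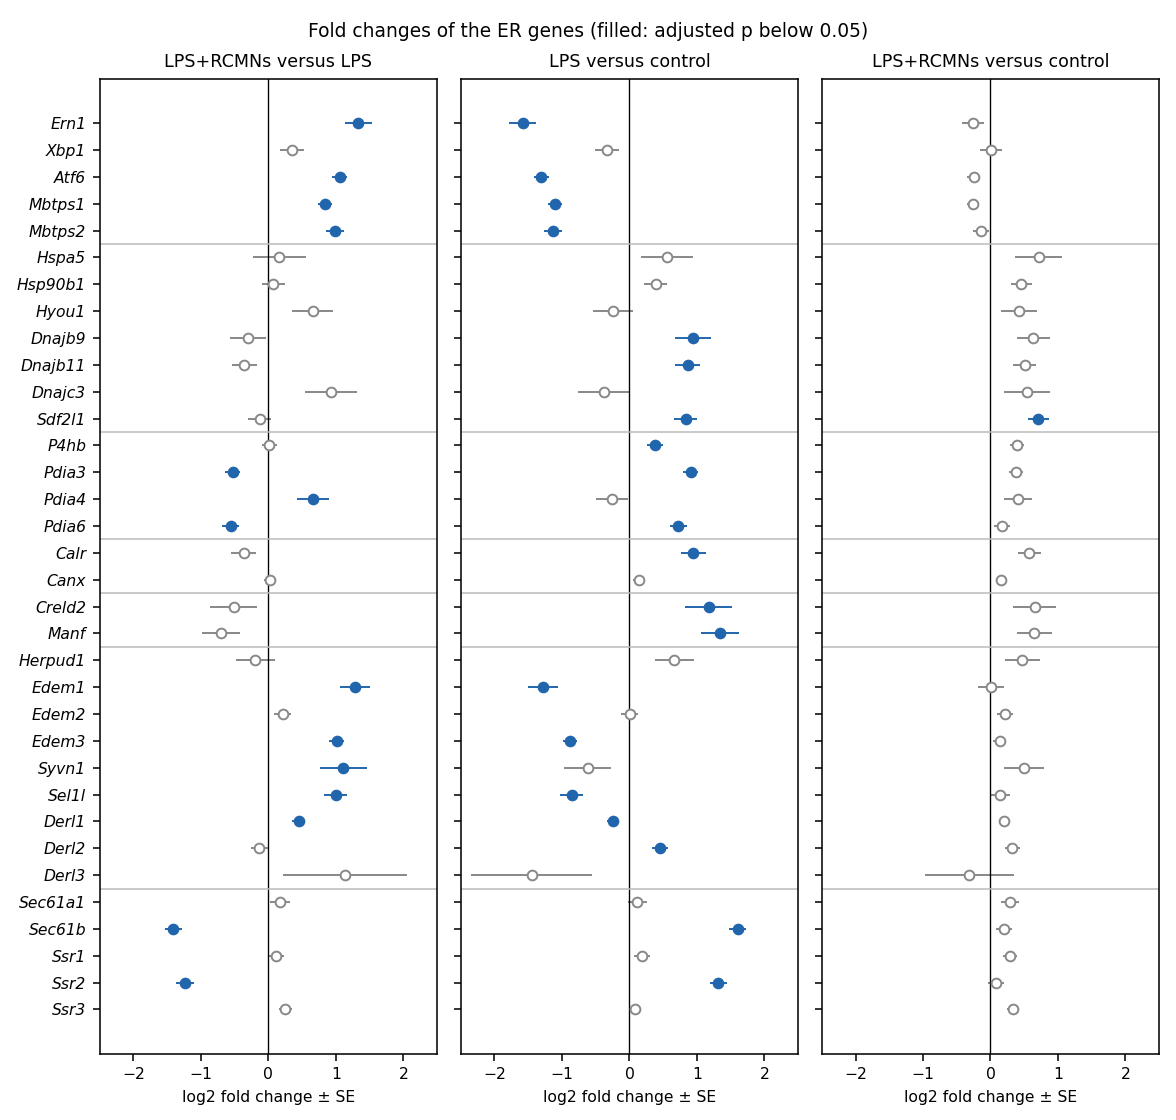
Log2 fold change of each member with its standard error (horizontal bars) in the 3 comparisons, grouped by role; filled points passed an adjusted p of 0.05. Filled points number 14, 20 and 1 from left to right.

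Among the stress sensors and transcription factors, 4 of 5 rose in LPS+RCMNs relative to LPS, where 29.8% of all genes rose. The same 4 genes fell in LPS relative to control, where 32.1% of all genes fell. Ern1 (gene ID 78943, chr11:106397620-106487796) had 24.3, 19.5 and 24.6 CPM in LPS+RCMNs, 8.84 and 9.27 CPM in LPS, and 33.3, 22.2 and 25.9 CPM in control. Both LPS libraries were below every other library, while LPS+RCMNs and control libraries overlapped. The log2 fold change was 1.33 ± 0.20 for LPS+RCMNs versus LPS (SE; adjusted p = 0.00036) and -1.58 ± 0.20 for LPS versus control (adjusted p = 0.000112), while LPS+RCMNs cells set against control gave -0.25 ± 0.16 (0.397, not called). Atf6 (226641, chr1:170704457-170868585) had 263, 225 and 253 CPM in LPS+RCMNs, 125 and 113 CPM in LPS, and 321, 282 and 278 CPM in control. Its groups did not overlap in any of the 3 comparisons, and its log2 fold changes were 1.06 ± 0.11 (adjusted p = 5.18e-05) for LPS+RCMNs versus LPS, -1.30 ± 0.11 (1.35e-05) for LPS versus control, and -0.25 ± 0.10 (0.164, not called) where LPS+RCMNs cells were set against control. Mbtps1 and Mbtps2, the site-1 and site-2 proteases that release ATF6 and the sterol regulators SREBP, followed with 0.84 and 0.99 for LPS+RCMNs versus LPS and with -1.10 and -1.13 for LPS versus control. Xbp1 (22433, chr11:5520641-5525993), the factor that IRE1 activates by splicing, had 124, 95.6 and 117 CPM in LPS+RCMNs, 85.8 and 91.2 CPM in LPS, and 85.3, 123 and 127 CPM in control. Every LPS+RCMNs library was above both LPS libraries, but control replicate 1 lay just below the LPS libraries. Xbp1 was not called, with 0.35 ± 0.18 (adjusted p = 0.122) for LPS+RCMNs versus LPS and -0.34 ± 0.18 (0.125) for LPS versus control, and without control replicate 1 both were called, at 0.32 (0.0373) and -0.45 (0.0131).

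The HSP70, HSP90 and J-domain chaperones held 0 calls of 7 in LPS+RCMNs versus LPS, against 59.3% of all genes. In LPS versus control 3 of 7 were higher and 0 lower, against 31.4% and 32.1% of all genes. In LPS+RCMNs versus LPS edgeR gave 1 gene (Dnajc3) an unadjusted p below 0.05. There DESeq2 called 1 (Hyou1, higher), where it called 59.4% of all genes (29.1% higher). By limma on FPKM 3 were called (Hsp90b1, Hyou1 and Dnajc3, higher), where 63.5% of all genes were called (45.7% higher). Without the 2 libraries that stood apart edgeR called 5 of these 7, against 73.8% of all genes. Dnajc3, Hyou1 and Hspa5 were then higher and Dnajb11 and Sdf2l1 lower. Hspa5 (14828, chr2:34772090-34776529) had 2715, 1662 and 2423 CPM in LPS+RCMNs, 2130.1 and 1927 CPM in LPS, and 611, 1824 and 1709 CPM in control. Control replicate 1 was the lowest library of all, LPS+RCMNs replicate 2 was the lowest of its group and below every LPS library, and both LPS libraries were above every control library. The log2 fold change was 0.55 ± 0.39 for LPS versus control (adjusted p = 0.238) and 0.71 ± 0.35 when LPS+RCMNs cells were set against control (0.263), and without the libraries that stood apart these were 0.25 and 0.57 with adjusted p of 0.0126 and 0.000468. The J-domain partners of BiP, which bring it clients, differed in LPS versus control by 0.94 ± 0.27 for Dnajb9 and 0.86 ± 0.19 for Dnajb11 (both called, Dnajb9 not without LPS replicate 2), and by -0.38 ± 0.38 for Dnajc3 (not called, but -0.65 with adjusted p = 5.52e-05 without the 2 libraries that stood apart). Sdf2l1 (64136, chr16:17130138-17132383) had 98.2, 98.3 and 98.1 CPM in LPS+RCMNs, 107 and 107 CPM in LPS, and 43.7, 68.9 and 68.0 CPM in control. Its LPS+RCMNs and LPS libraries all lay above every control library, and it was higher by 0.83 ± 0.17 in LPS versus control (adjusted p = 0.00216), a difference that turned to -0.04 and -0.25 when a trend on length or a surface on length and level was removed. Hsp90b1 (0.39 ± 0.17), the ER form of HSP90, and Hyou1 (-0.24 ± 0.30), which exchanges nucleotide on BiP, were not called in that comparison. Without the 2 libraries that stood apart both were called, at 0.26 (adjusted p = 0.00283) and -0.49 (0.000131).

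**Figure D4:**
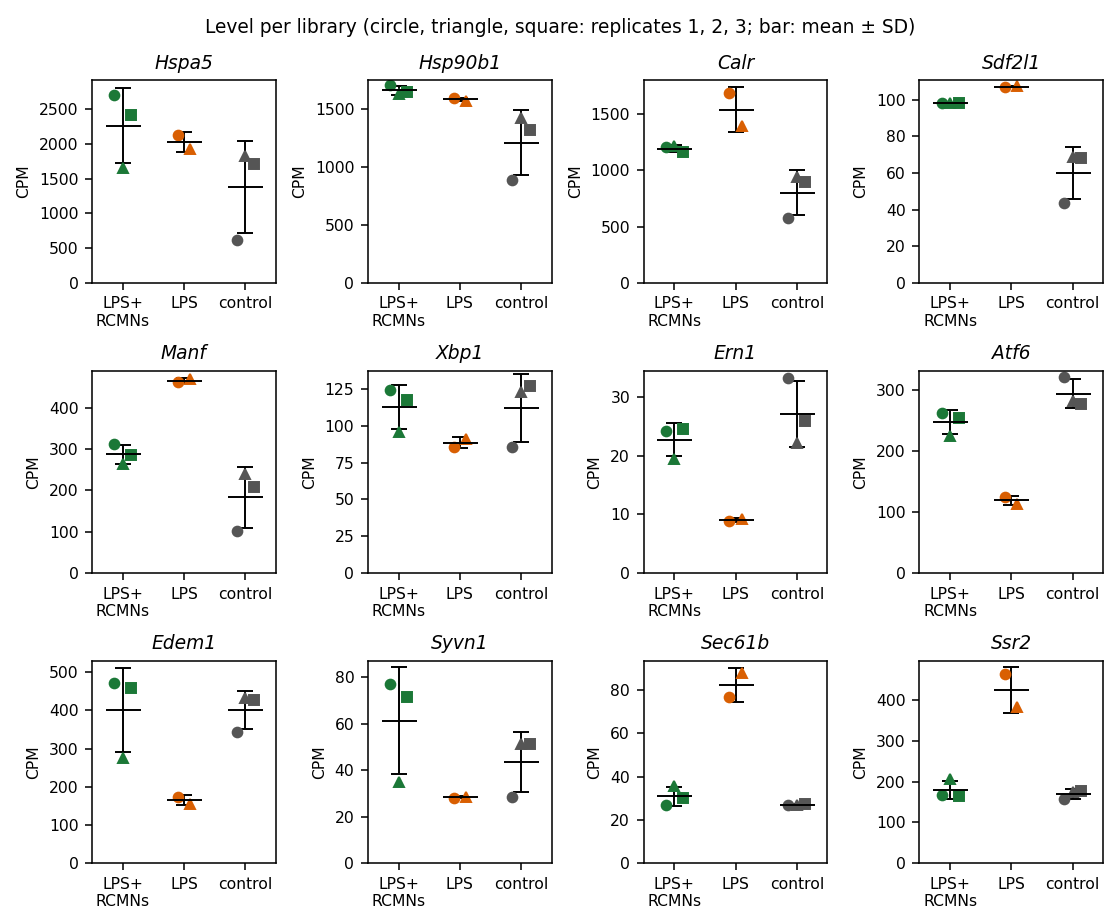
CPM per library of 12 members (vertical axes start at 0), with circle, triangle and square for replicates 1, 2 and 3 and the group mean ± SD as bars. The control 1 circle lies lowest of its group for Hspa5, Hsp90b1, Calr, Sdf2l1, Manf, Xbp1, Edem1 and Syvn1, and the LPS points of Ern1, Atf6 and Edem1 lie below all others.

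Of the 4 protein disulfide isomerases, which form and shuffle disulfide bonds, Pdia3 and Pdia6 fell and Pdia4 rose in LPS+RCMNs relative to LPS. Pdia3, which works with calnexin and calreticulin on glycoproteins, had 878, 926 and 831 CPM in LPS+RCMNs, 1314 and 1224 CPM in LPS, and 584, 735 and 711 CPM in control. The 3 groups did not overlap, and Pdia3 differed by -0.53 ± 0.11 (adjusted p = 0.00281) in LPS+RCMNs versus LPS, by 0.91 ± 0.11 (0.000101) in LPS versus control and by 0.38 ± 0.10 (0.0568, not called) in LPS+RCMNs versus control. Pdia6 followed with -0.56, 0.72 and 0.17 and P4hb with 0.02, 0.38 and 0.39 in the same order, the 0.38 of P4hb being called, except without LPS replicate 1, and turning to -0.11 on the FPKM scale. Pdia4 had the other direction, with 0.67 ± 0.24 in LPS+RCMNs versus LPS and -0.26 ± 0.23 (not called, but -0.45 with adjusted p = 0.000206 without the 2 libraries that stood apart) in LPS versus control. Its call was lost without LPS replicate 1 (0.74, adjusted p = 0.100), without LPS replicate 2 (0.55, 0.199), without LPS+RCMNs replicate 1 (0.62, 0.0811) or 3 (0.63, 0.0823).

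The lectin chaperones Calr and Canx hold newly made glycoproteins until they fold. Calr, which also buffers calcium in the ER, had 1205, 1215 and 1159 CPM in LPS+RCMNs, 1683 and 1398 CPM in LPS, and 574, 937 and 895 CPM in control. Calr rose by 0.94 ± 0.19 in LPS versus control (adjusted p = 0.00172), and its -0.37 ± 0.19 in LPS+RCMNs versus LPS did not pass (0.116). The Calr difference was called without control replicate 1 (-0.40, adjusted p = 0.00546) and in a fit of only the 2 groups (-0.37, 0.0180). The membrane lectin Canx was within 0.16 of no change on the log2 scale in all 3 comparisons. Of the secreted stress proteins, Manf (74840, chr9:106888753-106891938), a factor released from stressed cells, had 311, 263 and 287 CPM in LPS+RCMNs, 462 and 470 CPM in LPS, and 101, 241 and 208 CPM in control. LPS libraries were above LPS+RCMNs libraries, and these above control libraries. Manf rose by 1.35 ± 0.28 in LPS versus control (adjusted p = 0.00258), and its -0.70 ± 0.28 in LPS+RCMNs versus LPS was not called (0.0590). Without control replicate 1 it was -0.72 (adjusted p = 0.000264), and without control replicate 2 it was -0.72 (0.0320), both called. Creld2 showed 1.17 ± 0.35 (0.0152) and -0.51 ± 0.35 (0.229) in these 2 comparisons, and its rise was not called without LPS replicate 1 (adjusted p = 0.0537) or 2 (0.0631). Without control replicate 1, the value of -0.54 for Creld2 in LPS+RCMNs versus LPS was called (0.00251).

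Of the ERAD genes 5 of 9 rose in LPS+RCMNs versus LPS and 0 fell, against 29.8% and 29.5% of all genes, and in LPS versus control 1 rose and 4 fell, against 31.4% and 32.1%. Edem1 (192193, chr6:108824045-108859356), which marks glycoproteins for disposal by trimming mannose, had 472, 275 and 457 CPM in LPS+RCMNs, 174 and 156 CPM in LPS, and 343, 431 and 426 CPM in control. All LPS+RCMNs and control libraries were above both LPS libraries, with log2 fold changes of 1.28 ± 0.22 (adjusted p = 0.000959) for LPS+RCMNs versus LPS and -1.28 ± 0.22 (0.00088) for LPS versus control. Its relative Edem3 differed by 1.01 and -0.88 (both called), and Edem2 by 0.21 and 0.00 (neither called). Syvn1 (74126, chr19:6046576-6053718), the ubiquitin ligase of the channel complex, had 77.2, 35.03 and 71.6 CPM in LPS+RCMNs, 28.2 and 28.7 CPM in LPS, and 28.7, 51.1 and 51.05 CPM in control. LPS+RCMNs replicate 2 and control replicate 1 each had about the LPS level or slightly more, and the other 4 libraries of their groups were well above it. Syvn1 rose by 1.11 ± 0.35 in LPS+RCMNs versus LPS (adjusted p = 0.0215), but not when LPS replicate 1 (0.113), LPS replicate 2 (0.109), LPS+RCMNs replicate 1 (0.0626) or LPS+RCMNs replicate 3 (0.0629) was left out. Sel1l, the adaptor that holds Syvn1 in its complex, differed by 1.00 in LPS+RCMNs versus LPS and by -0.85 in LPS versus control. The derlins, which help proteins leave the ER, split: Derl1 differed by 0.45 and -0.24 (both called, the second lost in 11 of 19 alternatives, every omission of a control or LPS library among them) and Derl2 by -0.13 and 0.46 (the second called). Herpud1, a membrane partner of Syvn1, was not called in either comparison (-0.19 ± 0.29 and 0.66 ± 0.29). Without the 2 libraries that stood apart Herpud1 was called in LPS versus control, at 1.06 (adjusted p = 1.98e-07).

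Of the translocation genes, only Sec61b and Ssr2 were called, and the other 3 members differed by at most 0.25 in LPS+RCMNs versus LPS and 0.18 in LPS versus control. Sec61b (66212, chr4:47474661-47483233), the small subunit of the channel through which proteins enter the ER, had 26.9, 35.7 and 30.2 CPM in LPS+RCMNs, 76.5 and 87.8 CPM in LPS, and 26.8, 27.0 and 27.1 CPM in control. Both LPS libraries were far above all other libraries. The log2 fold change was -1.41 ± 0.13 (adjusted p = 2.09e-05) for LPS+RCMNs versus LPS and 1.61 ± 0.13 (8.15e-06) for LPS versus control. Ssr2 (66256, chr3:88579608-88588420), a subunit of the translocon-associated protein complex, had 168, 206 and 165 CPM in LPS+RCMNs, 463 and 384 CPM in LPS, and 157, 175 and 178 CPM in control. It differed by -1.24 ± 0.13 (4.5e-05) and by 1.32 ± 0.13 (2.55e-05). The pore subunit Sec61a1 differed by 0.18 and 0.12, neither called.

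Gene length, as implied by the deposited counts and FPKM, moved with these differences. Sec61b (503 bases), Manf (819), Ssr2 (1017) and Sdf2l1 (1059) are the shortest members, and Atf6 (7413), Edem3 (6551), Sel1l (6222) and Edem1 (5534) are the longest. Across the 34 members, Spearman's rho of the log2 fold change with length was 0.71 in LPS+RCMNs versus LPS, -0.73 in LPS versus control and -0.40 in LPS+RCMNs versus control. Across all genes it was 0.59, -0.58 and -0.09. In the first 2 comparisons the members thus followed a trend shared by the table. In LPS+RCMNs versus control their -0.40 stood against -0.09 for all genes. Genes are not independent replicates and share their libraries. After each library's smooth dependence on length was removed, 10 members were higher and 4 lower in LPS+RCMNs versus LPS (40.4% of all genes called) and 9 higher and 6 lower in LPS versus control (45.5%). Sec61b then differed by 0.07 and -0.02 in the 2 comparisons, which turned its direction, Manf by 0.35 and 0.22 and Sdf2l1 by 0.68 and -0.04, while Ern1 kept 0.96 (adjusted p = 0.00409) and -1.20 (0.00106) and Mbtps1 0.42 (0.0204) and -0.66 (0.00199). Atf6 kept -0.51 (0.00726) in LPS versus control and was not called in LPS+RCMNs versus LPS (0.31, adjusted p = 0.0663). With a surface on length and level removed instead, 12 members were higher and 0 lower in LPS+RCMNs versus LPS (38.4% of all genes called), and 3 higher and 9 lower in LPS versus control (42.8%). Manf then turned to -0.14 in LPS versus control. Under either correction all sensors and transcription factors other than Atf6 were higher in LPS+RCMNs versus LPS, and all 5 were lower in LPS versus control, Xbp1 included. In LPS versus control 3 of the HSP70, HSP90 and J-domain chaperones were higher without a correction, where 31.4% of all genes were. With the trend removed 1 was higher (23.3% of all genes), and with the surface removed 0 were (20.6%). Whether length or the treatments account for a given member was not tested.

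**Figure D5:**
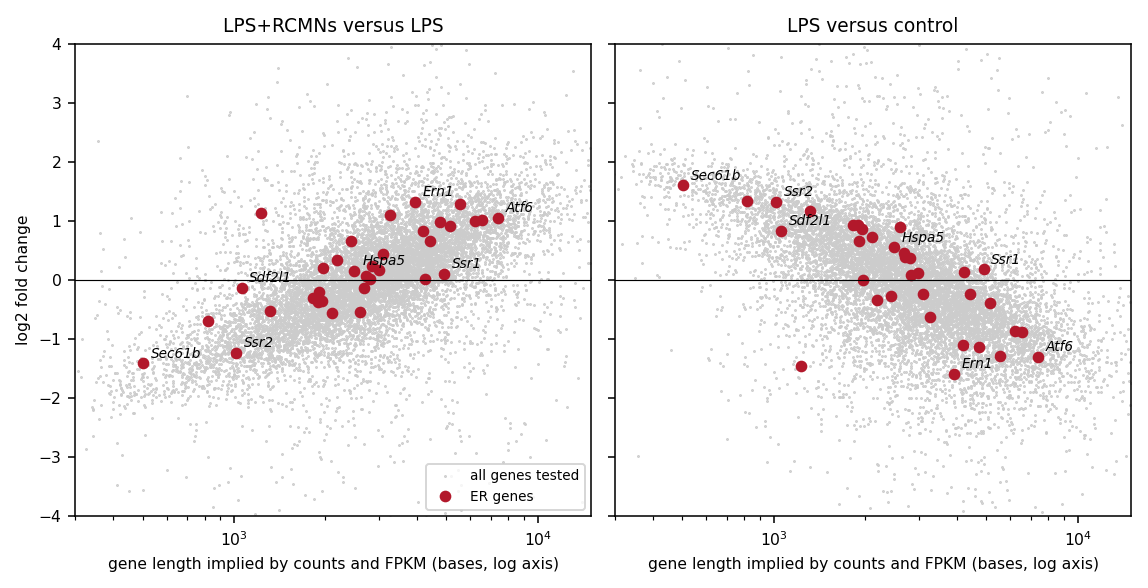
Log2 fold change against implied gene length (log axis) for all genes tested (grey) and the 34 members (red) in LPS+RCMNs versus LPS (left) and LPS versus control (right); the vertical axis is limited to 4 in each direction. Short members such as Sec61b lie at the lower left in the left panel and at the upper left in the right panel, with rho of 0.71 and -0.73 across the members.

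Per FPKM, whose scaling lowered the median of all genes in LPS versus control to -0.33 and raised it in LPS+RCMNs versus LPS to 0.27, limma on log2(FPKM + 1) called 2113 genes higher and 5925 lower in LPS versus control, against 3736 and 3818 by edgeR on counts. In LPS+RCMNs versus LPS it called 5448 higher and 2117 lower, against 3555 and 3508. Members were then 5 higher and 16 lower in LPS versus control, and 20 higher and 2 lower in LPS+RCMNs versus LPS, where 67.5% and 63.5% of all genes were called. Calls that held in direction and threshold under all 19 alternatives tried were those of Derl1, Edem1, Ern1, Mbtps1 and Mbtps2 in LPS+RCMNs versus LPS, and of Atf6, Edem1, Ern1, Mbtps1, Mbtps2 and Pdia3 in LPS versus control.

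The members also varied within groups. Control replicate 1 was the lowest control library for 26 of 34 members, against 44.1% of all genes, and the lowest of all 8 libraries for 23 of 34, against 17.8% of all genes. Its log2 level relative to the other 2 controls was -1.53 for Hspa5, -1.48 for Creld2, -1.34 for Dnajc3, -1.20 for Hyou1 and -1.15 for Manf, but 0.85 for Herpud1 and 0.48 for Ern1. The median absolute deviation of this library from its group mates was 0.37 over the members and 0.24 over all genes, against 0.05 and 0.07 between control replicates 2 and 3. In the same library the stress factor of the PERK arm, Atf4, had 484 CPM, against 193 and 177 CPM in controls 2 and 3, and its target Trib3 had 73.5 CPM, against 7.59 and 6.55 CPM, so genes of the response did not deviate in 1 direction. LPS+RCMNs replicate 2 was the lowest of its group for 23 of 34 members, against 43.7% of all genes, with log2 levels relative to its group mates of -1.08 for Syvn1, -0.89 for Dnajb9 and -0.79 for Dnajc3.

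Of the 10 members with a promoter match, 3 (Calr, Creld2 and Pdia6) rose and 0 fell in LPS versus control, against 31.4% and 32.1% of all genes. In LPS+RCMNs versus LPS 1 (Syvn1) rose and 1 (Pdia6) fell, against 29.8% and 29.5%. The median log2 fold changes of these 10 members were 0.47 and 0.04. Without the 2 libraries that stood apart, Herpud1, Hsp90b1, Hspa5 and Canx were also called higher in LPS versus control. Syvn1, Dnajc3 and, near the floor, Derl3 were then called lower. In LPS+RCMNs versus LPS, Dnajc3, Hspa5 and Derl3 then gained a call as higher, and Calr and Creld2 as lower. Of the 18 members with a promoter and no match, 7 rose and 6 fell in LPS versus control and 7 rose and 2 fell in LPS+RCMNs versus LPS, with medians of 0.04 and 0.23. In LPS+RCMNs versus control the medians were 0.48 with a match and 0.25 without. The 3 comparisons share libraries, so these values describe the members and were not tested.

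Related genes outside the 34 members were counted in 7 lists. The counts are to be read against 29.8% higher and 29.5% lower of all genes in LPS+RCMNs versus LPS. In LPS versus control these shares were 31.4% and 32.1%. Fold change also followed length across all genes (rho of 0.59 and -0.58), and no length correction is given for these lists or their genes. In the list for translocation, the signal peptidase and the signal recognition particle, 3 of 25 rose and 15 fell in LPS+RCMNs versus LPS, while 17 rose and 2 fell in LPS versus control. Its Sec61g, the gamma subunit of the Sec61 channel, had 41.5, 47.5 and 41.8 CPM in LPS+RCMNs, 129 and 153 CPM in LPS, and 34.9, 35.9 and 37.9 CPM in control. Sec61g thus resembled Sec61b before any length correction, with log2 fold changes of -1.69 and 1.96. The translocon-associated Ssr4 differed by -1.42 and 1.46, whereas Tram1 differed by 0.76 and -0.49. With length removed, the difference of Sec61b had not held its direction. Glycoprotein folding and oligosaccharide transfer genes were 3 higher and 9 lower of 18 in LPS+RCMNs versus LPS and 10 higher and 4 lower in LPS versus control. Among them Ost4, a small subunit of the oligosaccharyltransferase, differed by -1.80 and 1.76, and Uggt1, which senses misfolded glycoproteins, by 0.85 and -0.70. Other ER chaperones were 3 higher and 8 lower of 21 tested, then 9 higher and 2 lower, with the prolyl isomerases Ppib (-1.32 and 1.41) and Fkbp11 (-1.50 and 1.80) among them. Other ERAD genes were 3 higher and 10 lower of 26, then 12 higher and 5 lower, and the ER ubiquitin ligase March6 differed by 1.37 and -1.25. ER oxidoreductases were 7 higher and 6 lower of 16, then 6 higher and 4 lower, with the peroxiredoxin of the ER, Prdx4, at -1.02 and 0.96.

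The PERK arm, which slows translation through the initiation factor eIF2, was 1 higher and 5 lower of 14 in LPS+RCMNs versus LPS and 5 higher and 1 lower in LPS versus control. Ppp1r15a, the stress-induced subunit that lets translation resume, had 17.4, 11.5 and 16.6 CPM in LPS+RCMNs, 130.01 and 174 CPM in LPS, and 20.6, 16.8 and 16.6 CPM in control. Its log2 fold changes of -3.32 and 3.08 exceeded those of every member. Atf4, the transcription factor of this arm, fell by 1.08 in LPS+RCMNs versus LPS (adjusted p = 0.0299) and was not called in LPS versus control, at 0.70 ± 0.37 (0.126). Its LPS libraries had 446 and 477 CPM, against 193 and 177 CPM in control replicates 2 and 3. Control replicate 1, which stood apart, had 484 CPM. The PERK gene Eif2ak3 itself was not called, with 0.36 ± 0.14 (adjusted p = 0.0521) and -0.33 ± 0.14 (0.0673). Ddit3, the death-linked factor CHOP, was not called either, with 0.58 ± 0.44 and -0.29 ± 0.44. For Ddit3 control replicate 1 had 22.5 CPM, replicates 2 and 3 had 8.98 and 8.69 CPM, and the LPS libraries 10.1 and 11.8 CPM. Other sensors and cell death genes were 10 higher and 6 lower of 26, then 6 higher and 10 lower. In that list Itpr1, the calcium release channel of the ER, differed by 1.59 and -1.72, and Atf6b, the relative of Atf6, had the signs opposite to those of Atf6, with -0.75 and 0.99. In LPS+RCMNs versus control no list had more than 3 genes called in either direction.

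Among the genes most like Hspa5 over the 8 libraries, by Pearson's r of log2 CPM, were Kdelr2 (0.99), Plk3 (0.99), Hbegf (0.98) and Ublcp1 (0.98). Kdelr2 encodes a receptor that returns ER chaperones from the Golgi. Of the other members, Hsp90b1 (0.95) and Creld2 (0.90) came nearest, at rank 14 and 73 of 11910 genes, and Mbtps1 was farthest (-0.45). These r values describe 8 libraries in 3 groups and were not tested.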

How the data were processed

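Polyadenylated RNA of 8 MH-S libraries was sequenced; per the labels' protocols, libraries were made with a BGI kit after TRIzol extraction. The authors deposited an expected count for each of 17518 genes, an estimate that need not be whole, and FPKM, scaled by the authors per length and depth; 77.8% of counts above 0 differ from a whole number by more than 0.001. The build was mm10 per the submitters' processing notes; which aligner, counter and annotation were used is not given in the sources used here. A further 4 columns match no labelled sample and were not used.

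Counts were rounded, filtered with filterByExpr, scaled by TMM (0.779 and 0.803 for LPS, 1.05 to 1.13 otherwise) and tested over all 8 samples in 3 groups by quasi-likelihood in edgeR (version 4.0.16; R 4.3.3), with Benjamini-Hochberg adjustment over 11911 genes and a threshold of 0.05. Replicates varied by a biological coefficient of 14.5%, and the fit had 5 residual and 4.15 prior degrees of freedom. CPM is per M of scaled library size, floors use 3 counts, and a standard error is the log2 fold change divided by the square root of F. The procedure was tested on simulated data. The members, lists and alternatives were chosen with earlier results of these data known, the 7 lists of related genes by textbook function. Named were Hspa5, Xbp1, Ern1 and Atf6, and per comparison the 4 called members of largest fold with no overlap and a mean FPKM of at least 5; other members shown by library were chosen after their values were seen. Per list the 2 genes of smallest p in each direction were eligible, and Atf4, Trib3, Eif2ak3 and Ddit3 were added later. Alternatives were fits of 2 groups only, a block for replicate number, leaving out each library or the 2 that stood apart, other filters (none, or FPKM of at least 5 in 2 libraries), median-ratio scaling, DESeq2 1.42.0, limma 3.58.1 on log2(FPKM + 1) with a pseudocount of 1, a robust prior, and trends on length removed by loess (span 0.4). Promoters and loci are from RefSeq (GRCm38.p6); all 34 members had a locus, and the first transcribed bases of 24 of 29 promoter entries were found in a transcript of the gene. Of the 5 genes nearest to Hspa5 in Pearson's r, 1 is not reported here.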

Additional observations from a re-analysis of the deposited data

How the results depend on the processing

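Over 19 alternatives, the number of genes called in LPS+RCMNs versus LPS (7063) fell to 4573 with the surface on length and level removed. In LPS+RCMNs versus control 901 genes were called, against 3017 without both libraries that stood apart, 1379 by DESeq2, 454 with the replicate block and 322 to 1372 with each library left out. Members called higher in LPS+RCMNs versus LPS numbered 10 (29.8% of all genes), against 17 without both libraries (36.7%), 20 by limma (45.7%) and 8 to 14 with each library left out (22% to 31.9%). Members called lower numbered 4 (29.5%), against 8 with only the groups compared (30.1%), 9 without both libraries (37.1%), 2 by limma (17.8%), 0 with the surface removed (19.3%) and 4 to 8 with each library left out (24% to 32.8%; 8 without control replicate 1). In LPS versus control 12 members were higher (31.4%), against 5 by limma (17.7%) and 3 with the surface removed (20.6%), and 8 were lower (32.1%), against 14 without both libraries (36.3%) and 16 by limma (49.7%). In LPS+RCMNs versus control 1 member was higher (4.33% of all genes), against 0 with only the groups compared (3.14%), 19 without both libraries (14.8%), 4 under the FPKM filter (5.33%), 2 with median-ratio scaling (4.37%), 7 by DESeq2 (6.51%), 2 with a robust prior (4.38%) and 0 to 6 with each library left out (1.88% to 7.47%).

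Direction turned, where either value was called, as follows. With the length trend removed, LPS+RCMNs versus LPS gave 0.68 for Sdf2l1, -0.41 for Canx, 0.0687 for Sec61b and -0.43 for Ssr1, and LPS versus control gave -0.0424 for Sdf2l1 and -0.0153 for Sec61b. With the surface removed, LPS+RCMNs versus LPS gave 0.89 for Sdf2l1 and 0.17 for Sec61b, and LPS versus control gave -0.25 for Sdf2l1, -0.0077 for P4hb, -0.14 for Manf, -0.41 for Edem2, 0.0111 for Edem3 and -0.0852 for Sec61b. By limma on log2(FPKM + 1), LPS versus control gave -0.11 for P4hb, -0.34 for Canx, -0.48 for Edem2, -0.36 for Sec61a1, -0.27 for Ssr1 and -0.40 for Ssr3. The cause was not tested.

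Nothing in the labels says that the replicate numbers pair libraries. Same-numbered libraries correlated between -0.34 and 0.20 over all genes in their deviations from the group means, and between -0.59 and 0.21 over the members. These values cannot settle pairing, because deviations within a group are not independent and control 1 and LPS+RCMNs 2 stood apart. With the replicate block, members were 8 higher and 4 lower in LPS+RCMNs versus LPS, against 26% and 25.9% of all genes. In LPS versus control they were 12 higher and 7 lower, against 28.3% and 28.7%. In LPS+RCMNs versus control they were 1 higher and 0 lower, against 2.44% and 1.37%. Of 102 member results 97 kept their call with the block, 4 lost it and 1 gained it. Leaving out an LPS library leaves 1, assumed to vary like the other groups. With 2 LPS libraries and a coefficient of variation of 14.5%, small differences could be missed. Derl3 was too low for a fold to be read.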
